A study of Mus musculus with 12 samples.

Results

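The genes described here encode 10 potassium channel subunits, 5 of the two-pore (*Kcnk*) family and 5 of the inward rectifier (*Kcnj*) family, and were picked by symbol among the 37991 genes in the count files. The *Kcnk* genes were *Kcnk1*, *Kcnk2*, *Kcnk3*, *Kcnk9* and *Kcnk10*, and the *Kcnj* genes were *Kcnj3*, *Kcnj4*, *Kcnj6*, *Kcnj9* and *Kcnj10*. All 10 were read in every library, with at least 169 reads, and all 10 passed the filter on low counts. Hippocampal poly(A) RNA was sequenced from 12 C57BL/6N mice aged 6 to 7 months, 6 of them wild type (WT) and 6 homozygous for a *Gadd45a* null allele (*Gadd45a*-KO), one library per mouse. Both groups came from crosses of heterozygous parents, and mice of both genotypes went through passive avoidance (PA), a test of aversive memory, 1 h before the tissue was taken. No untrained mice were analysed here, so that every value stands for trained mice. In the null allele the first exons of the gene are replaced by a neomycin cassette under the phosphoglycerate kinase promoter, in all cells of the animal, and the last exon is left in place.

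Two-pore channels pass a steady outward leak of potassium that holds neurons and glia near their resting potential, and signalling through Gq-coupled receptors, acid, membrane lipids or stretch closes or opens particular members. Inward rectifiers pass potassium more easily into the cell than out of it, which clamps the membrane near the potassium equilibrium. Among them the GIRK channels open when G protein βγ subunits are released by inhibitory receptors such as those for GABA or adenosine, and the astrocytic channel Kir4.1 takes up the potassium that active neurons release.

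Libraries held from 44594261 to 55540601 reads on genes, with a median of 51862074 for WT and 50055667 for *Gadd45a*-KO, and 1 read was worth 0.0180 CPM (counts scaled to library size) in the deepest of them. Reads on *Gadd45a* went against the labels, with 102 to 154 in the WT libraries and 946 to 1179 in the *Gadd45a*-KO libraries (2.58 ± 0.481 against 21.4 ± 1.07 CPM, SD, n = 6 each), and counts per gene do not separate the deleted exons from the one that remains. Groups are therefore named by label throughout. Whether the labels match the genotypes was not tested, and every direction given below rests on the labels. Markers of hippocampal neurons were present in every library. Those of dentate granule cells summed to 336 to 499 CPM in WT and 219 to 452 CPM in *Gadd45a*-KO. Those of CA pyramidal cells summed to 637 to 810 CPM in WT and 584 to 863 CPM in *Gadd45a*-KO. Replicate 4 labelled *Gadd45a*-KO had both the lowest dentate and the highest CA sum. Choroid plexus markers summed to 38.0 to 65.6 CPM in WT. In *Gadd45a*-KO they ran from 30.9 to 83.6 CPM, with replicates 1 and 3 above the WT range and replicates 5 and 6 below it. The libraries *Gadd45a*-KO replicates 2 and 3 stood apart by thalamic markers, whose 12 genes summed to 487 and 738 CPM there, against 163 to 220 CPM in WT and 170 to 215 CPM in the remaining *Gadd45a*-KO libraries. Replicate 3 also had the most oligodendrocyte transcripts, 7507 CPM over 8 genes against 2372 to 3824 CPM in the other 11 libraries. No marker gene of any list passed 1% FDR between the labels. Values that move with these libraries are given below with and without them.

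What the members share by sequence is the selectivity filter, the short loop in the pore that lets potassium through and holds sodium back. A two-pore subunit carries 2 such loops and an inward rectifier subunit 1, and these numbers were found in all 10 members when the longest coding transcript of each was translated and searched for the potassium channel signature. To let the members that turn up in the comparisons below be set side by side, the 18 coding bases of 8 filters are shown. The last 9 bases, which encode only the end of the signature, are in capitals. All 18 are read from transcript sequences annotated on NCBIM37 (mm9), 5′ to 3′ on the coding strand. Filters within 1 exon equal the genome.
*Kcnk9* filter 1: acaactatcGGATATGGA
*Kcnk9* filter 2: actactataGGGTTCGGC
*Kcnk3* filter 1: accaccatcGGCTATGGT
*Kcnk3* filter 2: accaccatcGGCTTCGGC
*Kcnk1* filter 2: agcaccatcGGCCTGGGG
*Kcnj6* filter: accaccatcGGTTATGGC
*Kcnj3* filter: gccaccatcGGCTATGGC
*Kcnj10* filter: accaccatcGGCTATGGC

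Filter 2 of *Kcnk9* lies at chr15:72343149-72343166 on the minus strand, that of *Kcnk3* at chr5:30924572-30924589 on the plus strand and that of *Kcnk1* at chr8:128549226-128549243 on the plus strand. The filters of *Kcnj6* (chr16:95054384-95054401, minus strand), *Kcnj3* (chr2:55290035-55290052, plus strand) and *Kcnj10* (chr1:174299430-174299447, plus strand) are each within 1 exon, as are those of *Kcnj4* and *Kcnj9*. In all 5 *Kcnk* members the first filter was split by an intron after base 10 of the 18. That intron measures 32952 bases in *Kcnk9* (bases from chr15:72343467-72376436 on the minus strand, joined across it) and 33291 bases in *Kcnk3* (chr5:30890963-30924271, plus strand). Each member had a single gene ID, and none overlapped an exon of another gene on its own strand. On the opposite strand *Gm17595* overlaps *Kcnj3*, and the authors counted reads by strand. Neither point bears on reads from sequence shared by close relatives, and the part of such reads was not tested.

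Levels of the members were compared per kilobase of exon, as RPKM (CPM divided by exon length). In WT libraries *Kcnj3*, which encodes the GIRK1 subunit, was the highest at 39.3 ± 1.45 RPKM (SD, n = 6). *Kcnk1* (TWIK-1, a weak leak channel) followed at 35.6 ± 2.14 RPKM, *Kcnj10* (Kir4.1) at 32.5 ± 2.42 RPKM, *Kcnj4* (Kir2.3, a strong rectifier of forebrain neurons) at 29.0 ± 3.15 RPKM and *Kcnj9* (GIRK3) at 22.5 ± 2.63 RPKM. Neighbours in that order had overlapping ranges. A gap without overlap separated *Kcnj9* from *Kcnk2* (TREK-1, opened by stretch and lipids) at 15.9 ± 1.27 RPKM. *Kcnk9* (TASK-3, closed by acid) had 12.7 ± 2.41 RPKM and *Kcnj6* (GIRK2) 9.52 ± 1.38 RPKM, both overlapping with their neighbours above. The members with the least mRNA were *Kcnk3* (TASK-1, the close relative of TASK-3) at 1.88 ± 0.181 RPKM and *Kcnk10* (TREK-2, the close relative of TREK-1) at 1.70 ± 0.231 RPKM, which overlapped with each other and lay below all the rest. Thus each pair of relatives among the leak channels had an abundant and a scarce member. The gene models of *Kcnk9*, and of the longest coding transcripts of *Kcnk2* and *Kcnk10*, hold no UTR, so that reads in their UTRs are missing from the count where no other transcript covers them and their place in this order can be affected.

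**Figure D1:**
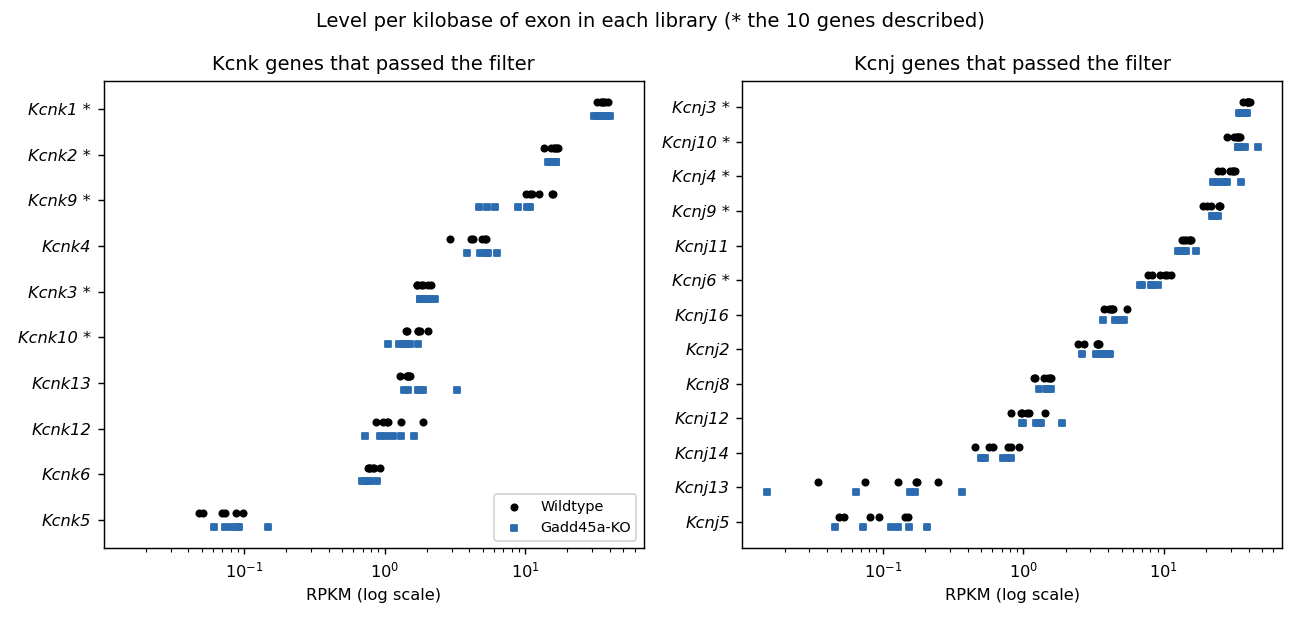
Levels of the *Kcnk* genes (left) and *Kcnj* genes (right) that passed the filter, in RPKM on a log axis, with 1 point per library (circles WT, squares *Gadd45a*-KO) and asterisks on the 10 members. The members span the range from *Kcnj3* at 39.3 RPKM to *Kcnk10* at 1.70 RPKM in WT, and the libraries of both labels overlap for every gene; 1 *Gadd45a*-KO library with 0 reads on *Kcnj13* is not drawn.

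To ask whether the channel mRNAs differed between the labels after PA, the quasi-likelihood test of edgeR was run on 16399 genes at 1% FDR. No member passed it in either direction (0 of 10 lower, 0 of 10 higher in *Gadd45a*-KO), where 2.62% of all genes tested were lower and 0.0244% higher. With DESeq2 at the same FDR the member counts were also 0 and 0, against 3.77% and 0.108% of its genes. The study, which ran DESeq at 1% FDR, names *Kcnk9* among the potassium channel subunits reduced in *Gadd45a*-KO, so this call differs between tests. At an unadjusted p under 0.05, 4 members were lower in edgeR (9.35% of all genes), namely *Kcnk9*, *Kcnk10*, *Kcnj3* and *Kcnj6*, and 1 was higher (4.34% of all genes), namely *Kcnj10*. At 5% FDR edgeR called none of the members, lower (4.43% of all genes) or higher (0.122%), whereas DESeq2 called *Kcnk9* lower (adjusted p = 0.0397, 4.83% of its genes) and none higher (0.331%). No member had all its *Gadd45a*-KO libraries on one side of all WT libraries, which 3.12% of the genes tested did downwards and 0.183% upwards. Over the members the median log2 fold change was -0.05, against 0.00 over all genes tested.

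**Figure D2:**
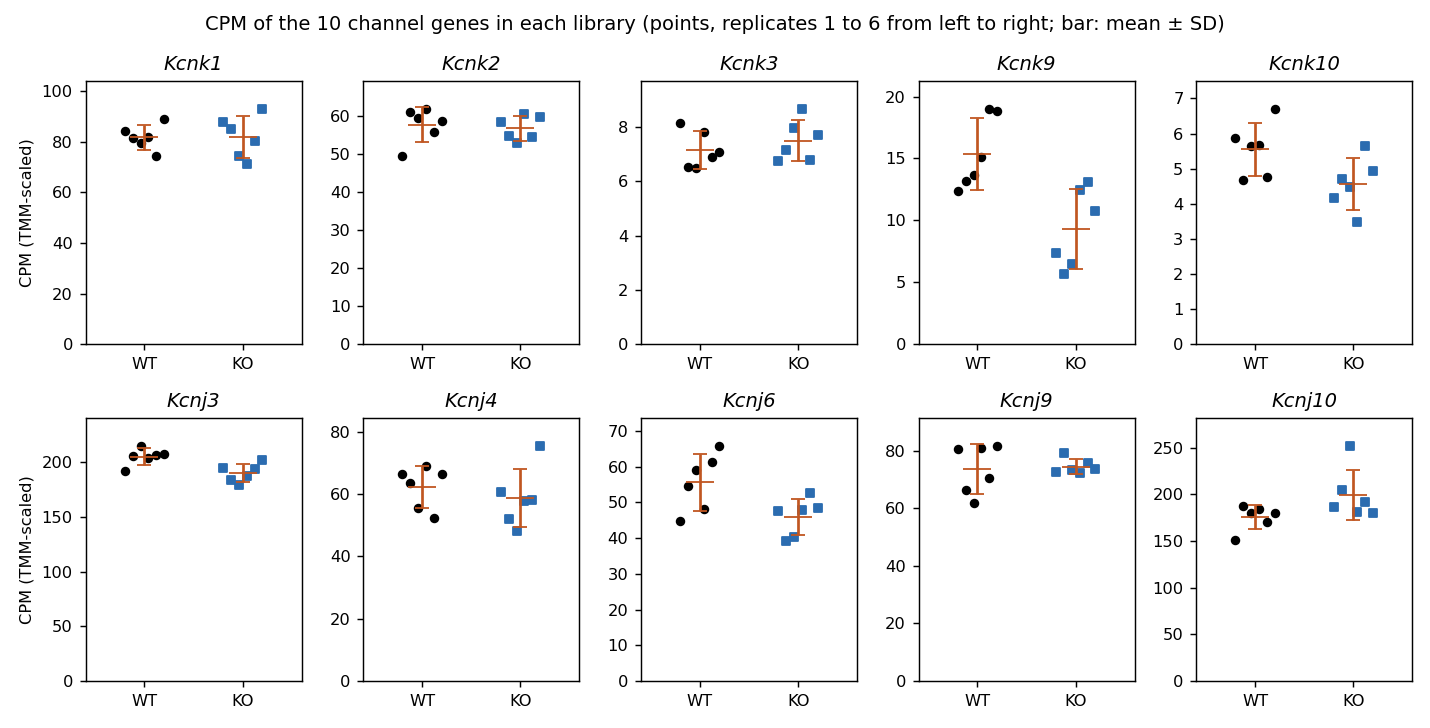
CPM of each member in every library, WT as circles and *Gadd45a*-KO as squares, with the mean and SD as a bar, all axes starting at 0. Relative to its level, *Kcnk9* shows the widest gap between the group means (15.3 against 9.32 CPM), with 3 *Gadd45a*-KO libraries within or near the WT range and 3 well below it, while *Kcnj10* has 1 *Gadd45a*-KO library at 252 CPM.

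Among the acid-sensitive leak channels, *Kcnk9* (ENSMUSG00000036760, chr15:72342549-72376709, minus strand) had the largest log2 fold change of the 10 members. WT replicates 1 to 6 were at 12.3, 13.2, 13.6, 15.1, 19.0 and 18.9 CPM, or 561 to 998 reads. In *Gadd45a*-KO, replicates 1 to 6 were at 7.40, 5.65, 6.48, 12.5, 13.1 and 10.8 CPM, or 257 to 607 reads. All 6 *Gadd45a*-KO libraries lay below the WT mean and 4 of them below every WT library, while replicates 4 and 5 lay inside the WT range. The log2 fold change was -0.72 (standard error 0.20, 95% interval -1.15 to -0.30), or -39.4%, with an unadjusted p of 0.00256 and an adjusted p of 0.0550 by edgeR's test. A two-sided exact permutation test of log2 CPM gave p = 0.00866 (n = 6 each). Taken alone, *Kcnk9* thus had an unadjusted p under 0.05 in both tests, although the ranges of the groups overlapped. In the edgeR fit it missed the threshold once all genes were taken into account. Replicates 2 and 3, the libraries with thalamic markers, were the lowest for *Kcnk9*, and without them the log2 fold change was -0.49 (adjusted p = 0.179, edgeR). Replicate 1, with thalamic markers within the WT range, was low as well. The part of these markers in the result was not tested, and in tissue RNA fewer cells of a type and less RNA per cell cannot be told apart. The gene model of *Kcnk9* holds no UTR, so its count covers the coding part only. For most affected transcripts the study reports similar coverage of both genotypes toward the 3′ end of the UTR. Whether that holds for *Kcnk9* was not tested.

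*Kcnk3* (ENSMUSG00000049265), whose product can join TASK-3 in one channel, had a smaller difference, of the opposite sign. It ranged from 6.48 to 8.16 CPM in WT (median 6.99) and from 6.75 to 8.66 CPM in *Gadd45a*-KO (median 7.44). The groups overlapped almost entirely, and the log2 fold change was 0.07 (95% interval -0.10 to 0.24, adjusted p = 0.807, edgeR). Per kilobase, *Kcnk9* mRNA was at 4.77 to 8.69 times the level of *Kcnk3* in WT (median 6.49) and at 2.48 to 6.09 times in *Gadd45a*-KO (median 3.93), with overlap between the groups.

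Of the TREK channels, *Kcnk10* (ENSMUSG00000033854) ranged from 4.67 to 6.69 CPM in WT (median 5.66) and from 3.48 to 5.65 CPM in *Gadd45a*-KO (median 4.60). The ranges overlapped, with 3 *Gadd45a*-KO libraries below every WT library. Its log2 fold change of -0.28 (standard error 0.11, 95% interval -0.53 to -0.04) had an adjusted p of 0.264 in edgeR and a two-sided exact permutation p of 0.0455. It was -0.29 without the libraries with thalamic markers. *Kcnk2* (ENSMUSG00000037624), with 49.3 to 61.7 CPM in WT (median 58.9) and 52.7 to 60.3 CPM in *Gadd45a*-KO (median 56.4), had every *Gadd45a*-KO library inside the WT range. Its log2 fold change was -0.02 (95% interval -0.14 to 0.09, adjusted p = 0.915, edgeR). *Kcnk2* was at 7.58 to 11.8 times the level of *Kcnk10* per kilobase in WT and at 8.69 to 15.7 times in *Gadd45a*-KO.

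*Kcnk1* (ENSMUSG00000033998) had nearly equal means in both groups. WT libraries ranged from 74.5 to 89.2 CPM (median 81.7) and *Gadd45a*-KO libraries from 71.2 to 92.9 CPM (median 82.8). The log2 fold change was 0.00 with a 95% interval of -0.13 to 0.14 (adjusted p = 0.994, edgeR), an interval that runs from -8.64% to 9.87%.

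**Figure D3:**
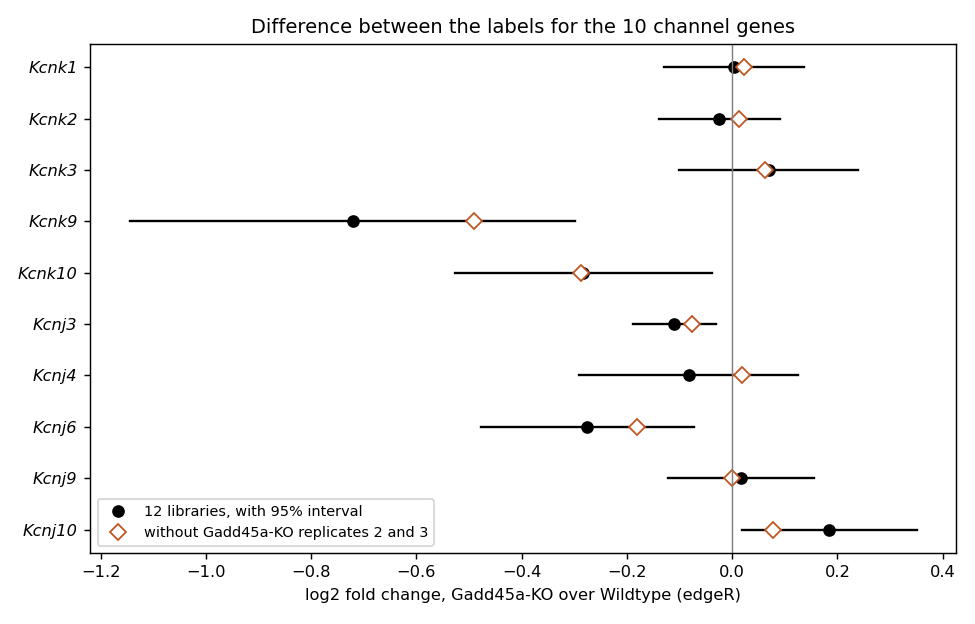
Log2 fold change of each member, *Gadd45a*-KO over WT, from edgeR with all 12 libraries (filled circles, 95% interval as a line) and without *Gadd45a*-KO replicates 2 and 3 (open diamonds). The intervals of *Kcnk9*, *Kcnk10*, *Kcnj3* and *Kcnj6* lie below 0 and that of *Kcnj10* above 0, none past 1% FDR; leaving out both libraries moves *Kcnk9* from -0.72 to -0.49 and *Kcnj10* from 0.18 to 0.08.

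Turning to the GIRK subunits, GIRK1 and GIRK2 mRNAs had small negative differences and GIRK3 mRNA a difference near 0. *Kcnj3* (ENSMUSG00000026824) ranged from 192 to 215 CPM in WT (median 206) and from 179 to 202 CPM in *Gadd45a*-KO (median 190). All 6 *Gadd45a*-KO libraries were below the WT mean and 3 below every WT library. The log2 fold change was -0.11 (standard error 0.04, 95% interval -0.19 to -0.03), or -7.36%, with an adjusted p of 0.143 in edgeR and a two-sided exact permutation p of 0.0130. *Kcnj6* (ENSMUSG00000043301) ranged from 44.7 to 65.8 CPM in WT (median 56.8) and from 39.1 to 52.5 CPM in *Gadd45a*-KO (median 47.7). Again all 6 *Gadd45a*-KO libraries were below the WT mean, but only 2 of them, replicates 2 and 3, were below every WT library. Its log2 fold change was -0.28 (standard error 0.09, 95% interval -0.48 to -0.07, adjusted p = 0.158, edgeR), with a two-sided exact permutation p of 0.0411. Without both libraries with thalamic markers it was -0.18 for *Kcnj6* and -0.08 for *Kcnj3*, and neither passed 1% FDR (edgeR, adjusted p = 0.635 and 0.641).

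*Kcnj9* (ENSMUSG00000038026) had 61.9 to 81.7 CPM in WT (median 75.6) and a narrow range of 72.1 to 79.3 CPM in *Gadd45a*-KO (median 73.5). Every *Gadd45a*-KO library lay inside the WT range, and the log2 fold change was 0.02 (95% interval -0.12 to 0.16, adjusted p = 0.955, edgeR). Per kilobase, *Kcnj6* was at 0.208 to 0.283 times the level of *Kcnj3* in WT and at 0.191 to 0.243 times in *Gadd45a*-KO. *Kcnj9* was at 0.459 to 0.671 times the level of *Kcnj3* in WT and at 0.583 to 0.689 times in *Gadd45a*-KO. GIRK1 mRNA was thus the most abundant of the 3 subunits in both groups.

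*Kcnj4* (ENSMUSG00000044216), the strong rectifier, had 52.3 to 69.0 CPM in WT (median 65.1) and 48.3 to 75.5 CPM in *Gadd45a*-KO (median 58.1). The *Gadd45a*-KO libraries lay on both sides of the WT range, 2 below it and 1 above it. Its log2 fold change was -0.08 (95% interval -0.29 to 0.12, adjusted p = 0.811, edgeR), and 0.02 without the libraries with thalamic markers.

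*Kcnj10* (ENSMUSG00000044708, chr1:174271341-174304216, plus strand), the potassium uptake channel of astrocytes and oligodendrocytes, was the one member with a positive difference at an unadjusted p under 0.05. WT libraries ranged from 152 to 187 CPM (median 180) and *Gadd45a*-KO libraries from 181 to 252 CPM (median 189). All 6 *Gadd45a*-KO libraries were above the WT mean and 3 were above every WT library. The log2 fold change was 0.18 (standard error 0.08, 95% interval 0.02 to 0.35), with an adjusted p of 0.295 in edgeR and a two-sided exact permutation p of 0.0346. Replicate 3 labelled *Gadd45a*-KO, the library with 7507 CPM of oligodendrocyte transcripts, had the highest value at 252 CPM, and the other *Gadd45a*-KO libraries had 181 to 205 CPM. Without it the log2 fold change was 0.11, and without replicates 2 and 3 it was 0.08 (adjusted p = 0.912, edgeR). Summed astrocyte markers ranged from 2013 to 2456 CPM in WT and from 2163 to 2356 CPM in *Gadd45a*-KO, all within the WT range. The part of the glial markers in the *Kcnj10* values was not tested.

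**Figure D4:**
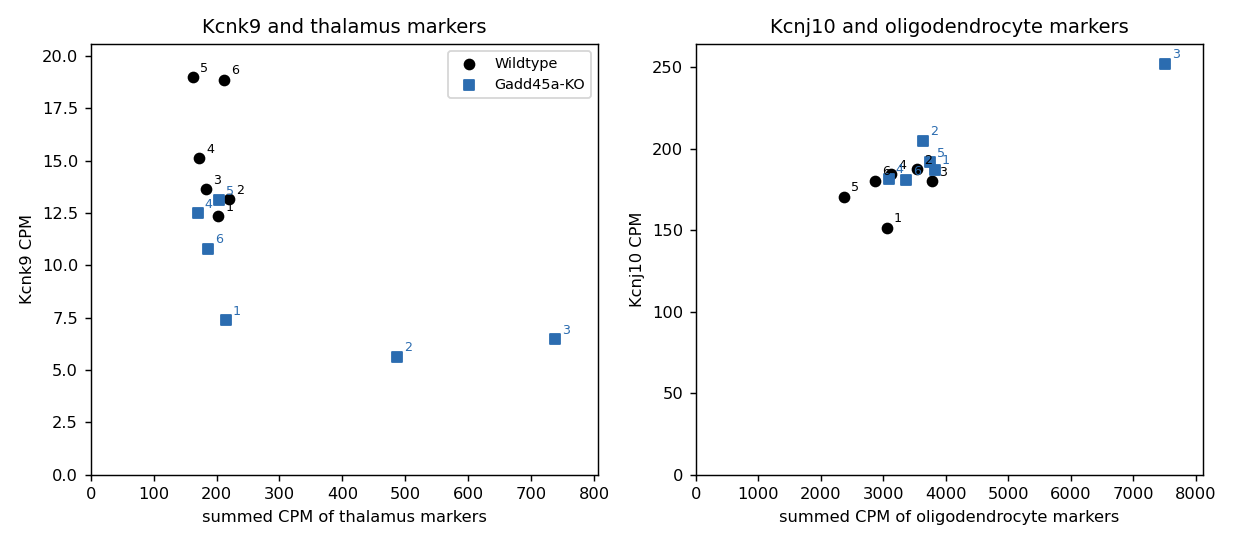
*Kcnk9* CPM against the summed CPM of 12 thalamus markers (left) and *Kcnj10* CPM against that of 8 oligodendrocyte markers (right), 1 point per library with its replicate number, WT as circles and *Gadd45a*-KO as squares, axes from 0. *Gadd45a*-KO replicates 2 and 3 lie to the right at 487 and 738 CPM of thalamus markers with *Kcnk9* at 5.65 and 6.48 CPM, and replicate 3 lies to the right at 7507 CPM of oligodendrocyte markers with *Kcnj10* at 252 CPM.

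Of the 14 *Kcnk* genes listed, 10 passed the filter, and of the 15 *Kcnj* genes 13 did, with 0 called at 1% FDR in either family and family medians of -0.01 and 0.02 on the log2 scale. *Kcnj11*, the pore of the channel that closes when ATP is high, was the most abundant of those outside the 10 members, at 14.6 ± 0.849 RPKM in WT and 14.0 ± 1.49 RPKM in *Gadd45a*-KO (SD, n = 6 each). *Kcnk4* had 4.44 ± 0.893 and 5.18 ± 0.804 RPKM, and *Kcnj16*, the partner of *Kcnj10* in astrocytes, 4.33 ± 0.598 and 4.65 ± 0.521 RPKM. *Kcnj2* had 3.12 ± 0.434 RPKM in WT and 3.53 ± 0.543 RPKM in *Gadd45a*-KO, and *Kcnk13* 1.44 ± 0.0844 and 1.91 ± 0.680 RPKM. *Kcnk13* was the only one of these with an unadjusted p under 0.05 (0.0299, adjusted p = 0.285, edgeR), with a log2 fold change of 0.41. Its highest value, 10.1 CPM, was that of *Gadd45a*-KO replicate 3, and the log2 fold change of *Kcnk13* was 0.20 without that library and 0.17 without replicates 2 and 3. The untested genes were *Kcnk7*, *Kcnk15*, *Kcnk16*, *Kcnk18*, *Kcnj1* and *Kcnj15*, which had from 0 to 9 reads per library, with *Kcnk18* at 0 in all 12. A count of 0 allows up to 3 reads, or 0.0668 CPM in the shallowest library, for counting error only.

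The proteins that open, close, anchor and regulate these channels were examined from fixed lists, in which 3 genes passed 1% FDR, all lower in the libraries labelled *Gadd45a*-KO. Of the 16 inhibitory receptors that open GIRK channels, among them those for GABA, adenosine and cannabinoids, 15 were tested. Of these, 0 were called in either direction (edgeR), beside 2.62% lower and 0.0244% higher of all genes tested, with a median log2 fold change of 0.01. Of the 19 G protein subunits and regulators of GIRK, all were tested, 2 were lower and 0 higher, beside 2.62% and 0.0244% of all genes tested, with a median of 0.02. These were *Rgs7bp*, whose product anchors the RGS proteins that speed the closing of GIRK channels, and *Kctd16*, an auxiliary subunit of the GABA-B receptor. At an unadjusted p under 0.05 (edgeR), the receptor list held 1 lower and 0 higher genes. The list of G proteins and regulators held 2 lower and 1 higher, beside 9.35% and 4.34% of all genes tested.

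*Rgs7bp* ranged from 285 to 322 CPM in WT (median 305) and from 227 to 250 CPM in *Gadd45a*-KO (median 238), with every *Gadd45a*-KO library below every WT library. It fell by 0.35 on the log2 scale (standard error 0.04, adjusted p = 8.67e-05, edgeR). *Kctd16* ranged from 4.53 to 6.60 CPM in WT and from 3.33 to 4.69 CPM in *Gadd45a*-KO, with 5 of 6 *Gadd45a*-KO libraries below every WT library. It fell by 0.53 on the log2 scale (standard error 0.11, adjusted p = 0.00777, edgeR). *Kctd16* stayed past 1% FDR in 2 of the 12 fits that left out a library, with log2 fold changes from -0.59 to -0.46 over the 12. Without *Gadd45a*-KO replicates 2 and 3 its log2 fold change was -0.49 (adjusted p = 0.0485, edgeR).

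Of the 13 genes of the Gq pathway that closes leak channels, 1 was lower and 0 were higher, again beside 2.62% and 0.0244% of all genes tested, with a median of -0.04. It was *Grm5*, the metabotropic glutamate receptor of pyramidal cells, with 281 to 343 CPM in WT (median 305) and 214 to 264 CPM in *Gadd45a*-KO (median 244), again without overlap between the groups. *Grm5* fell by 0.33 on the log2 scale (standard error 0.05, adjusted p = 0.00193, edgeR). Its log2 fold change was -0.28 without *Gadd45a*-KO replicates 2 and 3 (adjusted p = 0.0108, edgeR) and -0.26 with an offset for transcript length (adjusted p = 0.0109, edgeR). In the study's own test by exon, most exons of *Grm5* were lower in *Gadd45a*-KO, and the distal end of its extended UTR was not significantly affected. A count per gene joins these parts and does not give the size of the difference in each. Among the 8 partner proteins of leak channels, the 10 genes of astrocytic potassium and glutamate clearance, the 2 regulatory subunits of the ATP-sensitive channel and the 9 anchoring proteins of inward rectifiers, 0 were called in either direction (edgeR). At an unadjusted p under 0.05 these 4 lists held 2, 1, 0 and 1 lower and 0, 0, 0 and 1 higher genes, beside 9.35% and 4.34% of all genes tested, and their median log2 fold changes were 0.02, 0.06, -0.05 and -0.07. The Gq list held 3 lower and 0 higher genes by the same measure.

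The genes whose pattern over the 12 libraries was most like that of each member were ranked by Pearson's r of the deviations from the group means in log2 CPM, as a description, since the 12 values share library composition. For *Kcnk9* these were *Ptprt* (r = 0.945) and *Samd12* (r = 0.944). For *Kcnj10* they were *Fgf1* (r = 0.979) and *Psat1* (r = 0.966), for *Kcnj6* they were *Nbea* (r = 0.954) and *Whsc1l1* (r = 0.941), and for *Kcnj3* they were *Sphkap* (r = 0.944) and *Zswim5* (r = 0.939). *Kcnk10* was closest to *5830415F09Rik* (r = 0.897) and *2310008H09Rik* (r = 0.885), *Kcnk3* to *2310047M10Rik* (r = 0.893) and *Rnd2* (r = 0.892), and *Kcnk2* to *AF251705* (r = 0.873) and *Zscan20* (r = 0.862). *Kcnk1* was closest to *Slc35f2* (r = 0.951) and *Hnrnpl* (r = 0.930), *Kcnj4* to *C1qa* (r = 0.945) and *Dnajb5* (r = 0.930), and *Kcnj9* to *Epsti1* (r = 0.907) and *Slc37a1* (r = 0.904). None of the 10 members was among the closest genes of another.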

How the data were processed

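RNA-seq counts of 12 hippocampi were analysed, 6 labelled Wildtype (WT) and 6 labelled *Gadd45a*-KO, grouped and numbered by the sample labels. The authors made stranded poly(A) libraries, aligned reads with TopHat 1.4.1 to the mouse build NCBIM37 (mm9), counted them by strand with HTSeq 0.5.4p3 and deposited the raw counts for each Ensembl gene and library. The 5 rows of each file that name no gene were left out. The row for reads outside genes held 12.64% to 13.91% of all counts listed in WT and 11.47% to 12.57% in *Gadd45a*-KO. Every *Gadd45a*-KO library thus lay below every WT library, and the part of this difference in the results was not tested. Of the 37991 gene IDs, 37205 matched the annotation of the same build used here, which is an earlier Ensembl release than that of the authors.

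Genes were filtered (filterByExpr), scaled by TMM and compared with edgeR 4.0.16 (R 4.3.3), using the quasi-likelihood test without covariates, and p-values were adjusted by Benjamini-Hochberg over the 16399 genes tested, at 1% FDR after the threshold of the study. Standard errors were obtained by dividing the absolute log2 fold change by the square root of F, and 95% intervals follow from them. Log2 CPM for the exact permutation tests (Python 3.11.15, scipy 1.17.1) used a prior count of 2, and the smallest two-sided p for 6 against 6 is 0.00216. The fits were tested on simulated data with 200 changed genes. Figures were drawn with matplotlib 3.10.9.

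The members, the lists and the marker genes were chosen with earlier results of these data known. Named genes are the 10 members, *Gadd45a*, listed genes at 1% FDR with or without the replicate block (at most 5 per list), the other tested *Kcnk* and *Kcnj* genes and the 2 genes most correlated with each member. Alternatives were DESeq2 1.42.0, RLE scaling, leaving the filter out, a minimum of 10 counts in each library, 5% FDR, a prior count of 0.5, an offset for transcript length (spline, 5 degrees of freedom), the replicate number as a block, both together and each library left out. Leaving out *Gadd45a*-KO replicates 2 and 3 was added after seeing the data. Counting error did not account for the differences within any of the 30 same-label pairs. Reads along transcripts and in introns were not analysed here.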

Additional observations from a re-analysis of the deposited data

Results flagged for a closer look

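In each group of 6 libraries, a value was singled out when its gap to the nearest other library exceeded the share of the group's range that Dixon's test sets as its 95% limit. Of 54 such groups for the members and the other genes named, 6 were singled out, where chance alone gives about 2.70. *Kcnj10* had 252 CPM in *Gadd45a*-KO replicate 3 and 181 to 205 CPM in the other 5. The same library had 10.1 CPM of *Kcnk13*, against 4.29 to 5.83 CPM in the other *Gadd45a*-KO libraries, and 0.501 CPM of *Kcnk5*, against 0.206 to 0.308 CPM. Replicate 3 labelled *Gadd45a*-KO was also the library with the highest level of all 8 oligodendrocyte and all 12 thalamus markers, and the part of these markers in the 3 values was not tested. In WT replicate 5, *Kcnk13* was low at 3.97 CPM, against 4.49 to 4.72 CPM in the other 5, and *Kcnj16* was high at 21.5 CPM, where the other 5 began at 14.7 CPM. *Kcnj8*, a channel of vascular mural cells, was low at 2.83 CPM in *Gadd45a*-KO replicate 6, against 3.23 to 3.46 CPM in the other 5.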

How the results depend on the processing

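No member was called lower or higher at 1% FDR in edgeR under RLE scaling, no filter, a minimum of 10 counts, the length offset or any of the 12 fits without 1 library (0 to 0), nor with DESeq2. WT and *Gadd45a*-KO share replicate numbers, but only 5 of 6 same-numbered pairs of libraries deviated together by r over 0.1 (mean 0.140, against -0.0279 for different numbers), and 4 of 12 libraries correlated best with their own number, so that the numbers were not taken as pairs. With the replicate block 1 member, *Kcnk9*, was lower (log2 fold change -0.76, adjusted p = 0.00270, edgeR), and also 1 with the length offset and the block together (-0.77, adjusted p = 0.00385). Of all genes, 509 were then lower and 5 higher, against 430 and 4 without it.

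The number of lower genes was 661 with DESeq2, 248 with the length offset, 274 with offset and block, 726 at 5% FDR, 239 to 467 with 1 library left out and 199 without *Gadd45a*-KO replicates 2 and 3. For higher genes it was 19 with DESeq2, 20 at 5% FDR and 3 to 4 with 1 library left out. The cause of these shifts was not tested, except that fewer libraries entered the last fits. *Kcnk1* changed sign with the block (-0.0013), the length offset (-0.011), both (-0.016) and over the left-out libraries (-0.026 to 0.048). *Kcnk2* (-0.055 to 0.0042) and *Kcnj9* (-0.022 to 0.055) did so over the left-out libraries, and without *Gadd45a*-KO replicates 2 and 3 *Kcnk2* (0.013), *Kcnj4* (0.019) and *Kcnj9* (-0.0011) did. *Kctd16* was past 1% FDR neither with the offset (-0.54, adjusted p = 0.0127) nor with offset and block (-0.54, 0.0131, edgeR), and *Grm5* not with offset and block (-0.27, 0.0168, edgeR). Of the alternative fits of single members, 194 kept direction and side of the threshold, 14 changed sign and 2, both *Kcnk9* with the block, passed the threshold.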

Other observations

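Library by library, in mice with the same replicate number, which no source ties to a litter or day, *Kcnk9* in *Gadd45a*-KO was at 0.429 to 0.825 times its WT counterpart, lower in 6 of 6. *Kcnj3* and *Kcnj6* were lower in 5 of 6 such ratios (0.833 to 1.02 and 0.686 to 1.06 times), and *Kcnj10* was higher in 5 of 6, with a lowest ratio of 0.986. The ratios of *Kcnk1* ran from 0.869 to 1.08, with 2 lower and 4 higher. Among the rarer inward rectifiers, *Kcnj12* had 2.91 ± 0.555 CPM in WT and 3.53 ± 0.900 CPM in *Gadd45a*-KO (SD, n = 6 each), *Kcnj14* 1.83 ± 0.476 and 1.69 ± 0.372 CPM, and *Kcnj5*, the GIRK subunit of the heart, 0.429 ± 0.198 and 0.539 ± 0.257 CPM. *Kcnj13*, a channel of the choroid plexus, had 0 to 24 reads per library. Among the rarer leak channels, *Kcnk6* had 3.40 ± 0.246 CPM in WT and 3.17 ± 0.281 CPM in *Gadd45a*-KO, and *Kcnk12* 2.29 ± 0.703 and 2.18 ± 0.606 CPM. All of these had adjusted p-values over 5% in edgeR.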
